A study of Mus musculus with 18 samples.

Results

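The cone phototransduction cascade is described here by 10 genes, taken by name from a count table of 55487 genes: Opn1sw, Opn1mw, Gnat2, Gnb3, Gngt2, Pde6c, Pde6h, Cnga3, Cngb3 and Arr3. All 10 were found in the table. Their transcripts were measured by RNA sequencing in flow-sorted mouse retinal cells. The mice were Bmal1-mg/-mg, which lack the circadian clock gene Bmal1 in microglia (called knockouts), or Bmal1f/f, which carry floxed copies of it (called controls). From each genotype a CD11b- fraction of viable retinal cells other than microglia (called retina) and a CD11b+ fraction (called microglia) were sorted. There were 5 knockout and 4 control retina libraries, and 5 knockout and 4 control microglia libraries, 18 in all. The labels used here give neither the Cre driver behind the deletion nor the age, sex, strain or time of day of the mice. Nor do they say whether different libraries are different animals, so a p-value here measures only the spread between libraries, which may be technical.

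Cones are the photoreceptors of daylight and colour vision, and in mice they are few beside the rods. In the cone outer segment, light turns a cone opsin into a form that activates the cone transducin heterotrimer, transducin activates a phosphodiesterase, and the fall in cyclic GMP closes a cyclic nucleotide-gated channel, after which arrestin binds the opsin and ends its activity. Rods run the same steps with a set of related proteins, and most mouse cones carry both the short-wavelength and the middle-wavelength opsin in proportions that change from the ventral to the dorsal retina.

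The control regions of 3 members are shown because these genes open the cascade and their levels varied together over the retina libraries described later. RefSeq promoter windows of GRCm38.p6, each from 250 bases before to 50 bases after the annotated start, were at hand for 6 members, in 7 windows since Cnga3 has 2 starts. The windows below lie at chr6:29380464-29380763 on the minus strand (Opn1sw), chrX:74127216-74127515 on the plus strand (Opn1mw) and chr3:108092816-108093115 on the plus strand (Gnat2). They read 5′ to 3′ along the gene, and capitals mark the motif matches.
Opn1sw: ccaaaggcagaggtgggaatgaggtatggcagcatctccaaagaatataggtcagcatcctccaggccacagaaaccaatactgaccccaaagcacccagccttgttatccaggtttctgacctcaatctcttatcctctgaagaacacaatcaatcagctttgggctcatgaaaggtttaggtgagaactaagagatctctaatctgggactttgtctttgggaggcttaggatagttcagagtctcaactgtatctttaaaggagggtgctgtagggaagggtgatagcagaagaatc
Opn1mw: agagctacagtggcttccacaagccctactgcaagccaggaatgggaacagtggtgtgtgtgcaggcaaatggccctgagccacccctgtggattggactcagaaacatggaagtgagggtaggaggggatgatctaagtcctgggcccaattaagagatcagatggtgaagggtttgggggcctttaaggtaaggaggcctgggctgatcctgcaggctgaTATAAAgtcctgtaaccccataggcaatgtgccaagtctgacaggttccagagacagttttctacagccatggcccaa
Gnat2: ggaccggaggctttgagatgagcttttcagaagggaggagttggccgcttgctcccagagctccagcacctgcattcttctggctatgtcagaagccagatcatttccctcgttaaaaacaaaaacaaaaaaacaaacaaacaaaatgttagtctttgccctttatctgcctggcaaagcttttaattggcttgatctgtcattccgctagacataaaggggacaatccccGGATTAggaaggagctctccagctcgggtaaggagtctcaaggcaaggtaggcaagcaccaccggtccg
The motifs searched, on both strands, were TAATCC (core of the sites bound by the photoreceptor factor CRX), CACGTG (the E-box bound by BMAL1 with CLOCK) and TATAAA (the TATA box), and no member window held matches of more than 1 of them. Gnat2 had the only TAATCC match among the 7 member windows, on the opposite strand and beginning 19 bases before the start, against 7.06% of 32851 windows of all genes and 4 of 6 windows of the rod counterparts. The E-box was in 0 of the 7, against 7.15% of all windows. TATAAA was in 2 of the 7, in Opn1mw 28 bases before the start and in Cnga3, against 13.6% of all windows. A match is a run of letters and no evidence of binding.

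Library totals lay between 32277156 and 47563119 counts, and 3 counts in a library stood for 0.0631 to 0.0929 CPM, the count relative to the scaled library total. Genes detected by at least 1 count numbered 18761 to 19713 in knockout retina and 16510 to 18715 in control retina, without overlap. Counts over the whole Bmal1 gene (Arntl) did not separate the genotypes: they were 1.97 to 23.1 CPM in knockout microglia and 9.36 to 25.6 CPM in control microglia, and 83.5 to 132 CPM in knockout retina and 102 to 146 CPM in control retina. Such counts do not show the loss of single exons, and the genotypes are those of the labels. The labelled fractions matched their markers: 7 microglial genes summed to 28045 to 30653 CPM in knockout microglia and 28087 to 32637 CPM in control microglia, against 8.40 to 19.1 CPM in knockout retina and 15.3 to 20.3 CPM in control retina, where P2ry12 and Itgam (the CD11b gene) were at 0 in all knockout libraries and Aif1 in all control libraries.

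All 10 cone genes had higher mean levels in knockout than in control retina, and 4 of them rose past the threshold, Gnb3, Opn1sw, Gnat2 and Pde6c (edgeR quasi-likelihood test, adjusted p under 0.05 over 15332 genes). Of all genes tested 1.34% rose. The 10 genes and the other gene lists below were chosen with earlier results of these data known. Such shares are therefore set beside the counts as a description only. Reads of the 10 genes together made up 0.492 ± 0.160% of the total count in knockout retina and 0.143 ± 0.0524% in control retina, without overlap. Opn1sw alone was 47.0 ± 2.44% of these reads in knockouts and 45.5 ± 5.10% in controls, so it weighs most in the sum. The median log2 change over the 10 members was 1.67 (range 0.97 to 2.88), against a median of 0.00 over all genes tested. All 10 passed the filter on low counts and had an unadjusted p under 0.05, as did 2180 of all genes tested. In sorted bulk material, fewer cells of a type and less RNA per cell cannot be told apart.

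**Figure D1:**
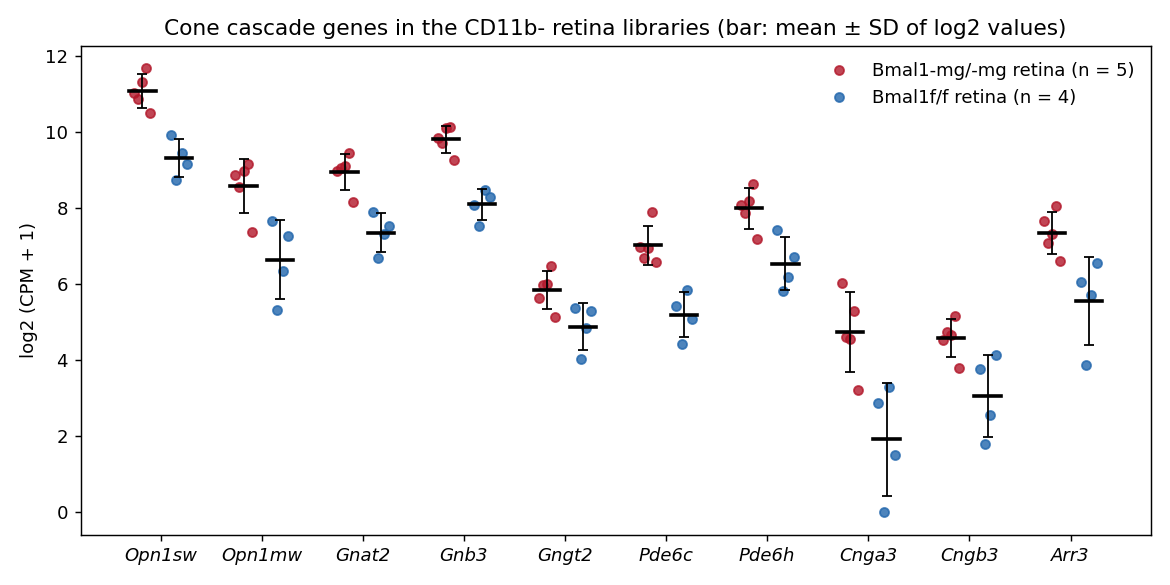
Level of each cone cascade gene in every retina library, as log2 (CPM + 1), with knockout libraries left of control libraries. Points are libraries and bars are the mean ± SD of the log2 values. Every knockout library lies above every control library for Opn1sw, Gnat2, Gnb3, Pde6c and Arr3, and the groups overlap for the other 5 genes.

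The opsins were the first step measured. Opn1sw (ENSMUSG00000058831, chromosome 6, 29376671 to 29388468, minus strand, GRCm38), the short-wavelength opsin, had 2079, 1874, 2520, 3264 and 1436 CPM in knockout retina replicates 1 to 5, against 962.5, 421.6, 694.5 and 571.8 CPM in control retina replicates 1 to 4. The groups did not overlap. The means were 2235 ± 695 CPM in knockouts and 663 ± 229 CPM in controls (SD, n = 5 and 4), a log2 change of 1.75 (SE 0.29, 95% interval 1.10 to 2.41, edgeR adjusted p = 0.0225). Opn1mw (ENSMUSG00000031394, chromosome X, 74127464 to 74150760, plus strand), the middle-wavelength opsin, had 460.0, 374.1, 496.8, 564.7 and 164.1 CPM in knockouts, against 198.9, 38.5, 79.8 and 151.5 CPM in controls. Knockout replicate 5 lay below control replicate 1, and the log2 change of 1.81 (SE 0.50, 95% interval 0.69 to 2.94) had an adjusted p of 0.111 with edgeR. The balance between the opsins showed no difference beyond its spread: Opn1sw made up 84.8 ± 3.03% of the reads of both in knockout retina and 85.8 ± 5.87% in control retina, with overlapping groups.

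The 3 subunits of cone transducin carry the signal from the opsin. Gnat2 (ENSMUSG00000009108, chromosome 3, 108092789 to 108101432, plus strand), the alpha subunit, had 500.6, 524.4, 545.2, 694.4 and 283.1 CPM in knockouts, against 236.7, 101.3, 157.6 and 181.7 CPM in controls. The lowest knockout library lay above the highest control library, and the log2 change was 1.59 (SE 0.29, edgeR adjusted p = 0.0355). Gnb3 (ENSMUSG00000023439, chromosome 6, 124834240 to 124840275, minus strand), the beta subunit, which is also made in ON bipolar cells, had 920.2, 839.0, 1096, 1110 and 608.6 CPM in knockouts, against 267.7, 184.0, 349.6 and 311.9 CPM in controls. The groups lay far apart, and the log2 change of 1.72 (SE 0.23) had the smallest adjusted p of the 10 with edgeR, 0.0135, at rank 31 among all genes tested. Gngt2 (ENSMUSG00000038811, chromosome 11, 95837216 to 95845734, plus strand), the gamma subunit, had the smallest difference of the 10. It had 34.0 to 87.4 CPM in knockouts (median 61.7) and 15.1 to 39.9 CPM in controls (median 32.6), with 1 knockout library inside the control range. Its log2 change was 0.97 (SE 0.34, 95% interval 0.20 to 1.74, edgeR adjusted p = 0.216).

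The cone phosphodiesterase is a dimer of Pde6c held inactive by the small inhibitory subunit Pde6h. Pde6c (ENSMUSG00000024992, chromosome 19, 38132781 to 38183958, plus strand) had 124.4, 100.9, 121.6, 235.9 and 94.0 CPM in knockouts, against 41.6, 20.5, 56.4 and 32.8 CPM in controls. All knockout libraries were above all control libraries (log2 change 1.84, SE 0.36, edgeR adjusted p = 0.0416). Pde6h (ENSMUSG00000064330, chromosome 6, 136923832 to 136968865, plus strand) had 269.0, 231.7, 286.6, 396.7 and 142.9 CPM in knockouts, against 170.0, 55.1, 71.5 and 103.6 CPM in controls. Control replicate 1 exceeded knockout replicate 5, and the log2 change of 1.41 (SE 0.37) had an adjusted p of 0.101 with edgeR. The catalytic gene had 0.515 ± 0.105 reads per Pde6h read in knockouts and 0.430 ± 0.244 in controls, with overlapping groups.

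The channel genes had the lowest levels per length of the principal transcript and the widest standard errors. Cnga3 (ENSMUSG00000026114, chromosome 1, 37214434 to 37263384, plus strand), the pore-forming subunit, had 64.1, 23.3, 22.6, 37.9 and 8.15 CPM in knockouts, against 6.26, 0, 8.79 and 1.83 CPM in controls. Knockout replicate 5 fell within the control range, and the log2 change of 2.88 came with an interval from 0.22 to 5.55 (edgeR adjusted p = 0.303). Cngb3 (ENSMUSG00000056494, chromosome 4, 19280850 to 19510623, plus strand), the modulatory subunit, had 12.7 to 34.7 CPM in knockouts (median 24.1) and 2.45 to 16.6 CPM in controls (median 8.64). Those groups also overlapped (log2 change 1.39, SE 0.56, edgeR adjusted p = 0.289). Arr3 (ENSMUSG00000060890, chromosome X, 100605497 to 100618493, plus strand), cone arrestin, which ends the response, had 201.8, 134.7, 156.5, 262.8 and 96.2 CPM in knockouts, against 65.2, 13.7, 51.5 and 91.8 CPM in controls. The genotypes did not overlap for Arr3, although its lowest knockout library was only just above the highest control library (log2 change 1.62, SE 0.49, edgeR adjusted p = 0.15). Counted together, 5 of the 10 members had every knockout library above every control library, as did 5.62% of all genes tested.

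With each library left out in turn, Gnb3 passed in 9 of 9 fits, Opn1sw in 7, Gnat2 in 2, Pde6c in 1 and Pde6h in 1. The members called were 1 without knockout replicate 3 or control replicate 3. They were 2 without knockout replicate 1, 2 or 4 or control replicate 2 or 4. They were 4 without knockout replicate 5 or control replicate 1, and without control replicate 1 Pde6h passed and Pde6c did not. With the level of 10 rod genes as a covariate 0 of 10 passed, 0 of all genes did, and 5 log2 changes turned negative. With the count of detected genes as covariate 0 of the 10 and 2 of all genes passed. The rod genes summed to 64151 to 80116 CPM in knockouts and 84896 to 121855 CPM in controls. Neither these sums nor the detected genes overlapped between genotypes, so these fits cannot tell the covariate from genotype. In a fit of all 18 libraries 1 of the 10 passed. DESeq2 called 7 of the 10 higher, against 5.35% of genes, and the authors' deposited table listed 8 of the 10 at an adjusted p under 0.05, all higher, against 4.24% of its 13330 genes.

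Levels compared between genes per kilobase of the principal transcript placed the opsin first and the channel last. In knockout retina the mean level was 927 ± 288 CPM per kilobase for Opn1sw, 495.5 ± 112 for Gnb3, 336 ± 126 for Opn1mw, 248 ± 71.8 for Gnat2 and 125 ± 47.3 for Arr3. Pde6c (52.3 ± 22.3), Pde6h (44.7 ± 15.5) and Gngt2 (37.1 ± 12.4) followed, and the channel genes Cnga3 (8.78 ± 5.96) and Cngb3 (5.05 ± 1.67) came last. Opn1sw exceeded Gnb3 in 5 of 5 knockout libraries and 4 of 4 control libraries. The first 5 places had the same order in control retina, at 275 ± 95 CPM per kilobase for Opn1sw, 151 ± 38.6 for Gnb3, 95.5 ± 58.5 for Opn1mw, 82.5 ± 27.3 for Gnat2 and 40.9 ± 23.9 for Arr3. Opn1mw and Gnat2 were not separated, since Opn1mw was above Gnat2 in 4 of 5 knockout libraries and 2 of 4 control libraries. Pde6c and Pde6h changed places between libraries, as did Cnga3 and Cngb3. The places depend on the transcript taken, since only Gnb3 and Cngb3 had a single length of annotated coding transcript. Those of Pde6h run from 211 to 5940 bases, of Cnga3 from 651 to 3554, of Gngt2 from 498 to 1587 and of Opn1sw from 408 to 2410.

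The 10 genes varied together between libraries of the same genotype. After each genotype mean was removed from log2 (CPM + 1), all 45 pairs of members had positive Pearson correlations over the 9 retina libraries, with a median r of 0.79, a lowest r of 0.47 (Pde6c with Cngb3) and a highest r of 0.96 (Gnat2 with Gngt2). These points share library, depth and sorted cells, so r is given as a description. Pairs of genes outside the 10 were not correlated, so joint variation is not shown to be particular to the cone genes. Knockout replicate 5 and control replicate 2 lay below their genotype mean for 10 of 10 genes, with median deviations of -0.76 and -0.81 on the log2 scale. Knockout replicate 4 was above the mean for all 10 (median 0.60).

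**Figure D2:**
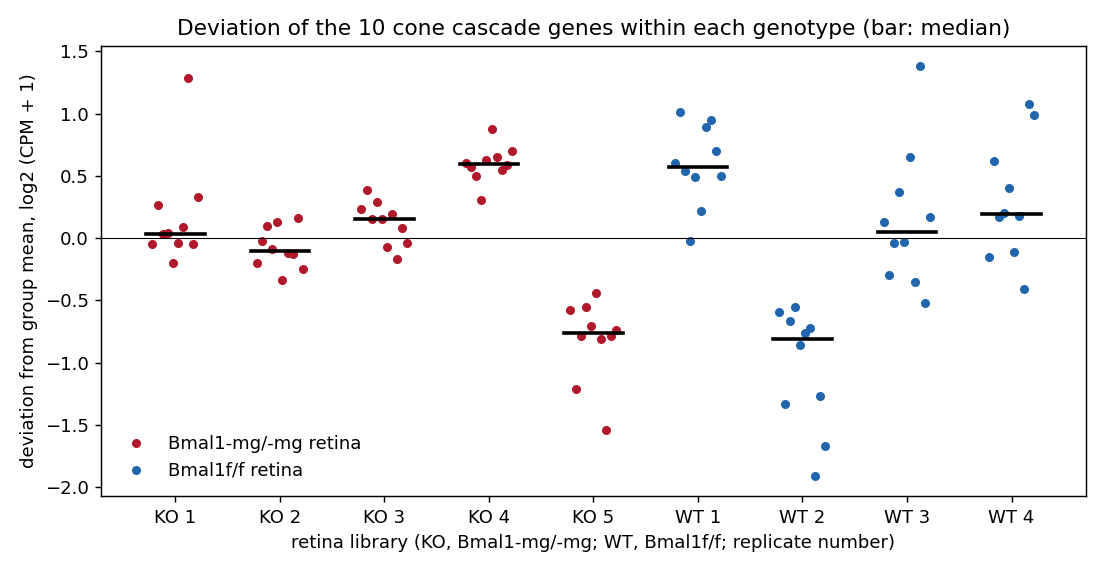
Deviation of each of the 10 cone cascade genes from its genotype mean in every retina library, on the log2 (CPM + 1) scale. Points are genes and bars their medians. The genes of a library move together, with knockout replicate 5 at a median of -0.76 and control replicate 2 at -0.81.

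Markers of other retinal cell types were followed in the same libraries. Summed levels of 10 bipolar cell genes were 1212 to 2368 CPM in knockout retina and 226 to 629 CPM in control retina, and knockout replicate 5 and control replicate 2 were again the lowest of their groups. Of these 10 genes 5 rose in knockouts (median log2 change 1.89), among them the calcium-binding protein gene Cabp5 (1.71, SE 0.16, edgeR adjusted p = 0.00569) and the carbonic anhydrase relative Car8 (2.19, SE 0.34, adjusted p = 0.0189). Reads of the cone members per read of the bipolar list came to 2.63 ± 0.341 in knockouts and 3.36 ± 0.631 in controls, with overlapping groups. Against the 6 Müller glia genes they came to 2.14 ± 0.326 in knockouts and 1.08 ± 0.332 in controls, without overlap. Of the Müller list 0 of 6 passed with edgeR (2 at an unadjusted p under 0.05, median 0.65), with 1631 to 2881 CPM in knockouts and 824 to 2099 CPM in controls and no gene at 0. Of 7 amacrine cell genes Slc6a9, a glycine transporter, rose (log2 change 1.16, SE 0.22, edgeR adjusted p = 0.038), the list median was 0.75, and the sums were 242 to 392 CPM in knockouts and 80.4 to 210.2 CPM in controls. Of 7 ganglion cell genes 0 passed with edgeR and 0 had an unadjusted p under 0.05 (median 0.01, sums of 12.9 to 23.6 CPM in knockouts and 5.84 to 29.7 CPM in controls). The part of these differences in the cone values was not tested. Knockout replicate 5 and control replicate 2 also had the lowest Müller and ganglion cell sums of their groups. The amacrine sum was lowest in control replicate 2 but highest in knockout replicate 5.

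The rod counterparts of the cone genes were lower in knockout retina. All 9 rod counterparts compared had negative log2 changes in knockout retina (median -0.52), and 4 fell, against 0.326% of all genes tested that fell. They were Cnga1 of the rod channel (414 ± 77.1 CPM in knockouts and 736 ± 86.6 CPM in controls, log2 change -0.83, SE 0.14, edgeR adjusted p = 0.0272), the phosphodiesterase inhibitor Pde6g (-0.68, SE 0.13, adjusted p = 0.0386), the transducin gamma subunit Gngt1 (-1.08, SE 0.21, adjusted p = 0.0409) and rod arrestin, Sag (-0.59, SE 0.12, adjusted p = 0.0493). Gnat1, Gnb1, Pde6a, Pde6b and Cngb1 had log2 changes from -0.52 to -0.37 that did not pass. Gnb1 stands here as the counterpart of Gnb3 and was not counted among the rod genes of the covariate.

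**Figure D3:**
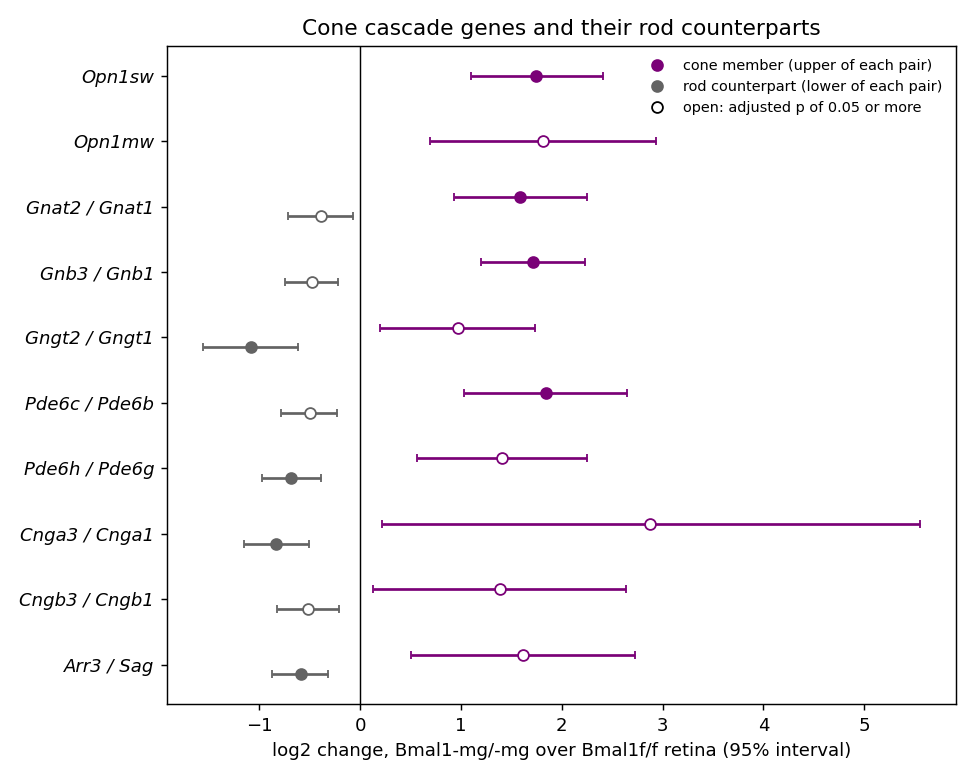
Log2 change between knockout and control retina for each cone gene (upper point of a pair, or alone for the opsins) and its rod counterpart (lower point), with 95% intervals. Filled points have an edgeR adjusted p under 0.05. Every cone point lies above 0, between 0.97 and 2.88, and every rod point below 0, between -1.08 and -0.39.

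Set against their rod counterparts within each library, the cone genes differed more between genotypes than in CPM. This follows from the lower rod counterparts in knockouts and is no separate result. Gnb3 had 16.2 ± 5.12 reads per 100 Gnb1 reads in knockout retina and 3.56 ± 1.16 in control retina, without overlap. Gnat2 had 1.01 ± 0.380 reads per 100 Gnat1 reads in knockouts and 0.270 ± 0.133 in controls, and Arr3 had 2.15 ± 0.945 per 100 Sag reads in knockouts and 0.487 ± 0.325 in controls, again without overlap. Gngt2 per 100 Gngt1 reads stood at 8.48 ± 3.72 in knockouts and 1.90 ± 0.688 in controls, a ratio of means of 4.47 where its own level had a fitted fold change of 1.96. Of the pairs, those of Pde6h with Pde6g and of Cngb3 with Cngb1 overlapped between genotypes.

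Genes that cones and rods share for the control and recovery of the response did not follow the cone members. All 14 had negative log2 changes (median -0.43), and 2 fell, the calcium sensor recoverin, Rcvrn (2673 ± 307 CPM in knockouts and 4022 ± 464 CPM in controls, log2 change -0.59, edgeR adjusted p = 0.0337), and phosducin, Pdc, which binds transducin beta-gamma (-0.87, adjusted p = 0.0373). The others with the smallest p were the prenyl-binding protein gene Pde6d (log2 change -0.48, edgeR adjusted p = 0.0938), the guanylate cyclase activator Guca1b (-0.56, 0.107), the trafficking factor Unc119 (-0.40, 0.15) and the guanylate cyclase Gucy2e (-0.34, 0.152), none of which passed. Reads from rods and from cones cannot be told apart in these shared genes.

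Genes enriched in cones outside the cascade had higher means in knockouts, as the members did, yet with edgeR 0 of 7 passed (5 at an unadjusted p under 0.05, median log2 change 1.74). Fam19a3 had 104 ± 39.7 CPM in knockouts and 31.0 ± 18.2 CPM in controls (1.74, edgeR adjusted p = 0.0876). Ccdc136 (2.00, 0.097), the potassium channel subunit gene Kcne2 (2.38, 0.1) and the proton channel gene Otop3 (1.11, 0.259) also had groups without overlap. Thrb, the thyroid hormone receptor needed for middle-wavelength opsin expression, had 82.9 ± 10.4 CPM in knockouts and 72.5 ± 8.33 CPM in controls (0.19, 95% interval -0.11 to 0.50, edgeR adjusted p = 0.624).

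The genes most like the members in profile, among 9718 with a mean of at least 5 CPM, were found by the Pearson correlation of log2 (CPM + 1) with the mean standardized profile of the 10 members over the 9 retina libraries. They were Ccdc136 (r = 0.985), the clathrin light chain gene Cltb (0.985), Kcne2 (0.984), Itm2c (0.982) and the growth factor gene Tgfb2 (0.980). Of these, Cltb (205 ± 65.1 CPM in knockouts and 60.0 ± 22.8 CPM in controls, edgeR adjusted p = 0.0426) and Itm2c (512 ± 99.9 CPM in knockouts and 182 ± 58.7 CPM in controls, adjusted p = 0.0228) rose. These correlations include the genotype difference, and the points share library and depth.

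Most cone transcripts were more abundant in the retina fraction than in the microglia fraction of controls. Of the 10 members 6 were higher in control retina than in control microglia (17.4% of 15188 genes tested were), and 1, Gngt2, was lower (22.8% were). Opn1sw averaged 623 ± 211 CPM in control retina and 70.4 ± 53.0 CPM in control microglia (log2 difference 3.15, SE 0.56, edgeR adjusted p = 0.00273), so that the microglia level was 11.3% of the retina level (95% interval 4.58 to 27.8%). For Opn1mw, Gnat2, Gnb3, Pde6h and Arr3, which also passed, the microglia level was 12.7 to 18.4% of the retina level. The rod counterparts, 9 of 9 higher in retina, had 4.13 to 8.35% of their retina level in microglia, with Gnb1 the highest. Of the 6 cone intervals only that of Gnb3, from 9.78%, lay wholly above these rod values. It overlapped the 95% intervals of Gnb1 (6.31 to 11.1%) and Cnga1 (2.49 to 9.86%), and the difference between the lists was not tested.

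**Figure D4:**
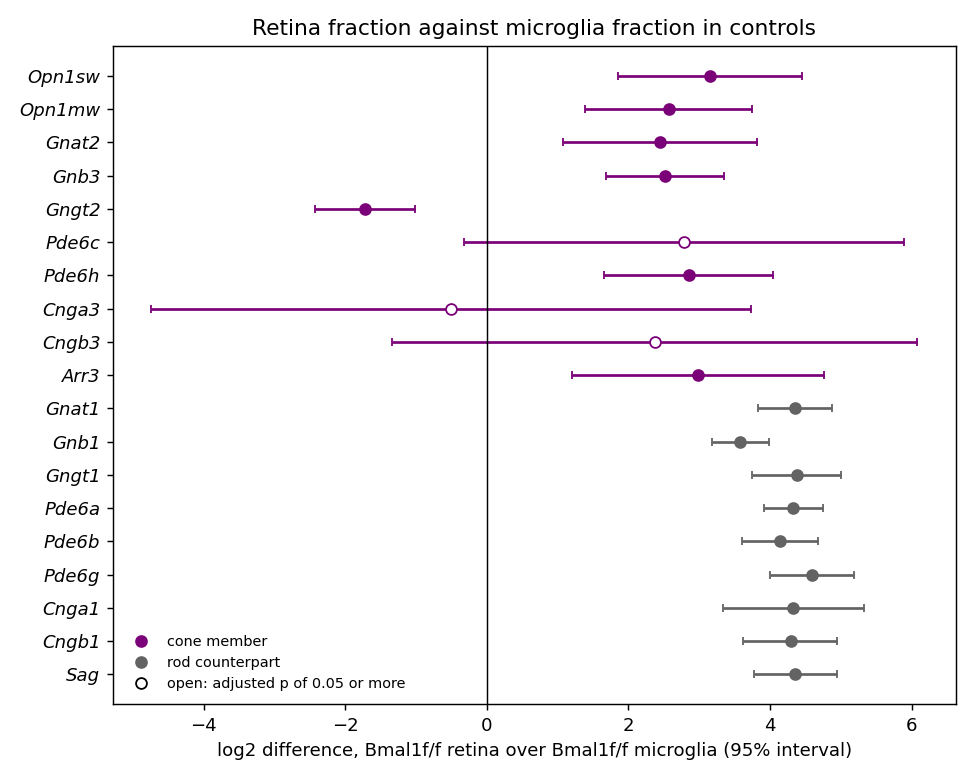
Log2 difference between control retina and control microglia for the 10 cone genes and their rod counterparts, with 95% intervals; filled points have an edgeR adjusted p under 0.05. Gngt2 is the filled point to the left of 0, at -1.72, and the rod genes lie together between 3.58 and 4.60.

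Gngt2 was the 1 member called higher in the microglia fraction. Cnga3 also had the lower mean in retina, 3.98 ± 3.82 CPM in control retina and 5.64 ± 5.04 CPM in control microglia, but did not pass (log2 difference -0.50, 95% interval -4.74 to 3.73, edgeR adjusted p = 0.85). Gngt2 had 108.4, 98.8, 107.7, 108.6 and 115.7 CPM in knockout microglia replicates 1 to 5, against 108.5, 76.3, 78.8 and 93.2 CPM in control microglia replicates 1 to 4. The genotypes overlapped, and the log2 change was 0.27 (SE 0.13, 95% interval -0.02 to 0.57, edgeR adjusted p = 0.886). In controls it averaged 28.2 ± 10.4 CPM in retina and 93.0 ± 14.9 CPM in microglia (log2 difference -1.72, SE 0.31, edgeR adjusted p = 0.00276), and it was called lower in retina in 14 of 14 alternatives. Gngt2 and its neighbour Abi3, a gene on the opposite strand, share 234 bases of annotated exons, and use of strand in counting is not given in the sources used here. Abi3 had 143 ± 10.4 CPM in knockout microglia and 155 ± 12.8 CPM in control microglia, against 1.22 ± 0.933 CPM in knockout retina and 0.595 ± 0.502 CPM in control retina. The share of reads of the overlap in the Gngt2 count was not tested. Opn1sw and Pde6h also share exon bases with opposite-strand genes, 397 with Calu and 136 with Arhgdib. Calu had 240 ± 57.8 CPM in knockout retina and 136 ± 27.9 CPM in control retina, without overlap. Arhgdib had 8.76 ± 4.49 CPM in knockout retina and 2.04 ± 2.20 CPM in control retina, well below the 143 to 397 and 55.1 to 170 CPM of Pde6h in the same groups, while in microglia it had 394 ± 36.3 CPM in knockouts and 343 ± 32.0 CPM in controls.

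No difference between genotypes in the other members passed the test in microglia. With edgeR 0 of the 9 members that passed the filter were called, 0 had an unadjusted p under 0.05, and DESeq2 and limma voom called 0, against 0.115% of all genes called by edgeR and 1.60% by DESeq2. Opn1sw had 94.4, 221.9, 52.7, 114.4 and 226.3 CPM in knockout microglia, against 28.4, 32.7, 70.8 and 136.9 CPM in control microglia, with wide overlap (log2 change 1.08, SE 0.57, 95% interval -0.20 to 2.36, edgeR adjusted p = 0.919). The channel and Pde6c reads came from few libraries. Cnga3 had 95 reads over the 5 knockout libraries, all in replicate 1, and 875 over the controls, of which replicate 3 had 0. Pde6c was at 0 in 3 of 5 knockout libraries and 1 of 4 control libraries. Cngb3, which did not pass the filter, had 0 reads in knockouts and 250 in controls, where 0 reads allows up to 0.0153 CPM over the group, a limit that covers counting error only.

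The genotype difference in retina was not shown to differ from that in microglia for single members. In the test of the difference between the fractions (all 18 libraries), 0 of 10 members passed with edgeR, against 0.469% of 18128 genes. An unadjusted p under 0.05 was found for 4 members, Opn1mw, Gnat2, Cnga3 and Cngb3, and for 2271 of all genes tested. Limma voom called 0 members and DESeq2 called 1, Cngb3, against 6.01% of genes. All 10 differences were positive (median log2 1.12, against 0.13 over all genes tested). Gnat2 had a difference of 1.83 (95% interval 0.44 to 3.22, edgeR adjusted p = 0.251) and Opn1sw of 0.72 (-0.70 to 2.14, adjusted p = 0.784). Fitted values of Cnga3 and Cngb3 are left out, since a group at or near 0 reads sets them. Both genes still count in the 4, in the 10 positive differences and in the median.

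Of 8 cone and rod pairs, 7 had their lowest mean of cone reads per rod read in control retina. Cngb3 did not, with 0 reads per 100 Cngb1 reads in knockout microglia, beside 1.76 ± 0.810 in knockout retina and 0.483 ± 0.391 in control retina. By medians Cnga3 and Pde6c did not either. Their knockout microglia medians were 0 per 100 rod reads, below the control retina medians of 0.510 for Cnga3 and 0.674 for Pde6c. Gngt2 was itself more abundant in microglia than in retina. Values follow for 3 pairs, and Arr3 with Sag is plotted too, a choice made after the values were seen. Gnb3 had 10.1 ± 5.28 reads per 100 Gnb1 reads in knockout microglia and 7.24 ± 2.85 in control microglia, beside the 16.2 ± 5.12 of knockout retina and the 3.56 ± 1.16 of control retina. Gnat2 had 0.912 ± 0.499 reads per 100 Gnat1 reads in knockout microglia and 0.886 ± 0.626 in control microglia, beside 1.01 ± 0.380 in knockout retina and 0.270 ± 0.133 in control retina. The microglia genotypes overlapped in both ratios. Pde6h per 100 Pde6g reads stood at 4.74 ± 1.71 in knockout microglia and 4.09 ± 1.75 in control microglia, against 5.46 ± 2.23 in knockout retina and 1.33 ± 0.832 in control retina. These ratios are descriptions and were given no test.

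**Figure D5:**
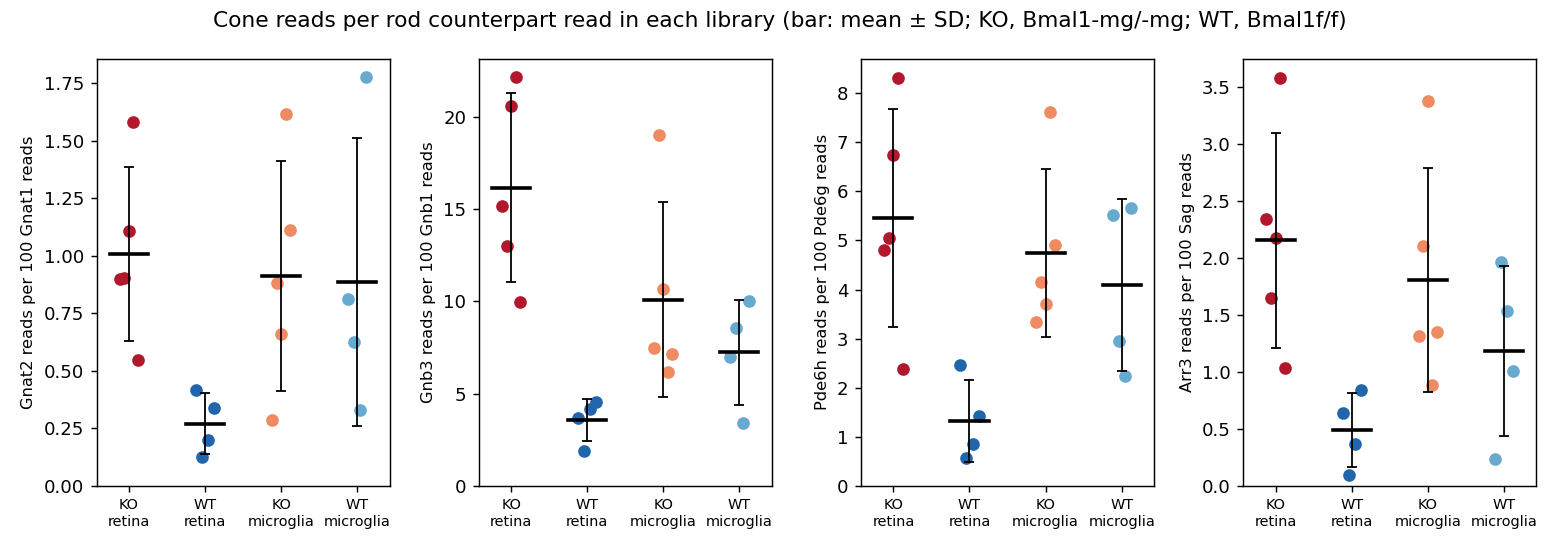
Reads of cone genes per read of the rod counterpart in each library of the 4 groups, with knockouts left of controls; bars are mean ± SD. Control retina has the lowest mean in each of the 4 panels, for example Gnb3 at 16.2 reads per 100 Gnb1 reads in knockout retina and 3.56 in control retina.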

How the data were processed

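RNA of flow-sorted cells was purified on RNeasy Plus Micro columns, amplified by the SMARTer Ultra Low method and sequenced on a NovaSeq X Plus, per the labels' protocols. Amplified reads are not independent molecules, so floors cover counting error only. The authors deposited raw counts per gene, whole numbers without normalization. Per the submitters' processing notes, DRAGEN, STAR 2.7.9a, Subread, featureCounts, edgeR and limma were named with build GRCm38, in no stated role. The authors' deposited tables of each genotype comparison hold, per the file headers, a log2 fold change, a log2 average abundance, a score (likelihood ratio statistic) and p-values for each gene.

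Of 55774 lines, 287 repeated an identifier with identical counts and were dropped. Names, positions and transcript lengths came from GENCODE M21 (55141 genes matched). No pair of libraries was identical (0 pairs). After filterByExpr and TMM scaling, differences in counts were assessed by edgeR's quasi-likelihood fit (version 4.0.16, R 4.3.3), with Benjamini-Hochberg adjustment over all genes tested, and called at an adjusted p under 0.05. Each comparison used only its own groups, and the test of the difference between fractions all 18 libraries. Standard errors are the log2 change over the root of F, and CPM are scaled within the fit they come from. The fits were tested on simulated counts with a single mean per gene over all groups, apart from 200 changed genes. Such counts do not represent groups near 0 reads or the large differences between fractions. The cone genes and the other lists were chosen with earlier results of these data known. Genes named outside the 10 members followed a written rule: the rod counterparts (1 of them is not reported here), called genes of each list and those with the smallest p, and the 5 most similar profiles. Thrb was named after its values were seen, and Abi3, Arhgdib and Calu after their exon overlap was seen. Alternatives were the size factors of DESeq2, other filters, DESeq2 1.42.0, limma 3.58.1 voom, a replicate block, covariates and leaving out each library.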

Additional observations from a re-analysis of the deposited data

Results flagged for a closer look

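In 6 of 39 sets of 4 or 5 libraries, a single library stood far from the others for a cone gene. Chance flags about 1 in 20 independent sets of normal values. The sets here share libraries and some hold several libraries at 0, so that rate cannot judge the number flagged. In microglia, Gnb3 had 150 CPM in knockout replicate 2, where the other 4 knockout libraries had 32.6 to 60.6 CPM. The same library had 46.6 CPM of Pde6c. Opn1mw had its lowest value, 7.17 CPM, in knockout microglia replicate 3, and Cnga3 its only value above 0 among knockout microglia, 2.23 CPM, in replicate 1. Arr3 had 1.05 CPM in control microglia replicate 1. In retina, Pde6c had 236 CPM in knockout replicate 4, the library in which all 10 cone genes were above their genotype mean.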

How the results depend on the processing

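In retina 4 cone genes and 255 genes were called. Without a filter 3 cone genes and 120 genes were, with DESeq2 7 and 1184, with limma voom 4 and 363, in a fit of all 18 libraries 1 and 217, with the rod level as covariate 0 and 0, and with the count of detected genes as covariate 0 and 2. Leaving out single libraries gave 1 to 4 cone genes and 96 to 342 genes. The gene count was 96 to 141 without any of knockout replicates 1 to 4 or control replicate 3, and the cone count was 1 or 2 without any of knockout replicates 1 to 4 or control replicates 2 to 4. The cause was not tested. With the rod level, Opn1mw turned to -0.58, Gngt2 to -0.87, Pde6h to -0.35, Arr3 to -0.31 and Cngb3 to -1.09; with detected genes, Gngt2 to -0.01 and Cngb3 to -0.15. In microglia 17 genes were called, and 237 with DESeq2, 26 with limma voom, 8 without a filter, 32 in the fit of all 18 libraries, 5 with detected genes, 4 to 5 without any of the 4 control libraries and up to 21 without a knockout library, with 0 cone genes in each. Values that changed sign there were Gnat2 (0.04 with limma voom, -0.46 to 0.63 without single libraries), Pde6c (-1.93 with limma voom, -5.51 with the replicate block, -0.66 to 2.01 without single libraries) and Cnga3 (1.56 with detected genes). Between control fractions 7 cone genes and 6100 genes were called, 7 to 8 and 5328 to 5854 without single libraries, and 9 cone genes with limma voom; Cnga3 ran from -1.17 to 0.09 without single libraries. In the difference between fractions 85 genes were called, 1090 with DESeq2, 145 with limma voom, 58 without a filter, and 51 (without control microglia replicate 3) to 143 (without control retina replicate 4), where leaving out libraries was chosen after seeing the data. There 0 to 1 cone genes were called, 1 without control microglia replicate 2 and 1 with DESeq2, and Pde6c ran from -0.12 to 2.56.

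Replicate numbers are shared between the groups, but the labels do not say that a number marks an animal. Deviations of same-numbered libraries correlated at 0.00 to 0.04 between retina genotypes (2 of 4 correlated best with their own number), -0.07 to 0.01 between microglia genotypes (0 of 4), -0.02 to 0.05 between control fractions (1 of 4) and -0.03 to 0.02 between knockout fractions (3 of 5). Different cell fractions of the same animal need not deviate together, so these values cannot decide whether a number marks an animal. The main fits did not pair the samples, and those between fractions would leave out such a pairing if there were one. The replicate block gave 0 genes and 0 cone genes in retina and 2 genes and 0 cone genes in microglia. In these comparisons of genotypes knockout replicate 5 has no control in its block and adds nothing. The block gave 4436 genes and 6 cone genes between control fractions, and 9 genes in the difference between fractions. At these depths 0 reads in a library allows up to 0.0631 to 0.0929 CPM. Cnga3, Cngb3 and Pde6c had libraries at 0 beside libraries of the same group with up to 427, 198 and 1799 reads.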
